A study of Mus musculus with 9 samples.

Results

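The data described here are the signals of 10 genes of electrophile and quinone handling in the mouse urogenital sinus: 8 glutathione transferase genes (Gsta2, Gsta3, Gsta4, Gstm1, Gstm2, Gstp1, Gstt1 and Gsto1), the quinone reductase gene Nqo1 and the microsomal epoxide hydrolase gene Ephx1. They were taken as every probe set of the deposited array table annotated to one of these symbols alone, which gave 15 probe sets for 10 of the 18193 genes named on the array. The 10 genes were chosen by earlier results of the same arrays, namely a high Gsta2 signal after bisphenol A and a list of xenobiotic metabolism genes, Ephx1 among them, that was higher at birth. The comparisons of BPA with Control and of P0 with the embryonic ages are therefore given as descriptions, with no p-value for any member, while those of DES with Control and of E18 with E17 carry the test. The tested comparisons share the Control arrays or the E17 arrays with those used for the choice, so they are not independent of it.

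Each of 9 Affymetrix arrays held RNA from the urogenital sinus of C57BL/6 fetuses or newborns, the embryonic structure from which the prostate, bladder neck and part of the vagina form. The groups were BPA (bisphenol A, a weakly estrogenic plastics monomer, 20 µg/kg/day), DES (diethylstilbestrol, a synthetic estrogen, 0.2 µg/kg/day) and Control, labelled as vehicle exposed; the agents were given to the dams in tocopherol-stripped corn oil on embryonic days 13 to 16. Each agent had 1 array at E17, 1 at E18 and 1 on the day of birth (P0), so its 3 ages were its only repeats (n = 3 arrays per agent). Bladder, urethra and the Wolffian and Mullerian ducts were dissected away in both sexes, per the labels. The number, sex and litter of the animals on an array are not given in the sources used here. The p-values and SEs rest on how far single arrays depart from added agent and age effects. That spread mixes variation between arrays, which may be technical, with any agent effect that differs between ages.

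Glutathione transferases join glutathione to electrophilic compounds, which makes them more soluble and easier to export, and their classes (alpha, mu, pi, theta, omega) differ in substrate. NQO1 reduces quinones without passing through reactive semiquinones, and EPHX1 opens epoxides with water. Many of these genes are known targets of the transcription factor NRF2 (gene Nfe2l2), which acts through antioxidant response elements (ARE) and is held back by KEAP1, and some also answer to the aryl hydrocarbon receptor through xenobiotic response elements (XRE). In the human prostate, which descends from this tissue, GSTP1 is known for the silencing of its promoter in cancer.

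The promoters of 5 members are shown because their genes gave the widest spread over the arrays (Gsta2, Gstm2, Gstm1, Ephx1) or the narrowest (Gstp1). They are RefSeq sequences of build GRCm38.p6, 250 bases immediately before a transcript start, read 5′ to 3′ on the gene's own strand. Capitals mark matches to any of the motifs searched on both strands.
Gsta2, chr9:78347146-78347395, minus strand: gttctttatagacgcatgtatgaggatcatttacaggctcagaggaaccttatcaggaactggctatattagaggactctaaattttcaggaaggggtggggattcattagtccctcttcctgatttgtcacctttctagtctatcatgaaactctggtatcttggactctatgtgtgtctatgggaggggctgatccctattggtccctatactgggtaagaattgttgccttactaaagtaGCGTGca
Gstm1, chr3:108017974-108018223, minus strand: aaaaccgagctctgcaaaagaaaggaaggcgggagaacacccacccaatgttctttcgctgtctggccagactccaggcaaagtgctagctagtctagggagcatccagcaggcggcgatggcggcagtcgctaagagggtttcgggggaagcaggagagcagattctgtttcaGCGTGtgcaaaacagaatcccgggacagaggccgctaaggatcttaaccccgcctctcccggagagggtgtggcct
Gstm2, chr3:107986421-107986670, minus strand: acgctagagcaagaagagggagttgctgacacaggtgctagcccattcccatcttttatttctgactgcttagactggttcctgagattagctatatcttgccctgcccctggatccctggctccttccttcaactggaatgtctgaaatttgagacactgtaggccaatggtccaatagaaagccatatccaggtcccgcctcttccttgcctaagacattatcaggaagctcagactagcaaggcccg
Ephx1, chr1:181017570-181017819, minus strand: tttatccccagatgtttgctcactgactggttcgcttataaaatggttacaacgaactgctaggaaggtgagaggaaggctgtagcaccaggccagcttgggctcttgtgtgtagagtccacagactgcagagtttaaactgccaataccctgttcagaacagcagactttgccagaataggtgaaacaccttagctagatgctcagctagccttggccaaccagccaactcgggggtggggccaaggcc
Gstp1, chr19:4037913-4038162, minus strand: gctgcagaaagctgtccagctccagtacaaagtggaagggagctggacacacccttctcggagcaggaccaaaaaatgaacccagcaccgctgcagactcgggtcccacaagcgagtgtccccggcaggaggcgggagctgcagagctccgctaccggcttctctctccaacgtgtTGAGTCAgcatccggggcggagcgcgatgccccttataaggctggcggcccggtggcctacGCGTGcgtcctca
The motifs were the ARE core TGACNNNGC, the AP-1 site TGANTCA, the XRE core GCGTG and the palindromic estrogen response element (GGTCA and TGACC with 3 free bases between them). The table held 10 promoters for 9 of the 10 members, with 2 starts for Gstm1, and Gsta4 had none listed. The XRE core stood in 4 of the 10, at 7 bases before the start in Gsta2, 76 or 231 bases before the 2 starts of Gstm1 (the same bases, since these windows overlap) and 13 bases before the start in Gstp1. Of all 32851 promoter windows, 28.2% held it. An AP-1 match lay 74 bases before the start of Gstp1 alone among the 10 (6.75% of all windows), and the ARE core lay 121 bases before the start of Gsta3 alone (10.2% of all windows). The estrogen response element matched 0 of the 10 and 0.0639% of all windows. Gsta2 lies at chr9:78331018-78347192, Gsta4 on the same chromosome at chr9:78191966-78209349, and Gstm1 (chr3:108012250-108017973) next to Gstm2 (chr3:107981702-107986420) in the mu cluster. The other members are on chromosomes 1 (Gsta3 and Ephx1), 19 (Gstp1 and Gsto1), 10 (Gstt1) and 8 (Nqo1), all protein coding. The windows of Gsta2 and of the inner Gstm1 start overlap the gene spans given here, and the Gsta2 XRE core lies in the overlap. The Gstt1 window (chr10:75797732-75797981) lies within its gene (chr10:75783813-75798584).

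Signals are given after quantile normalization between arrays, on a linear scale, and differences are in log2(signal + 5.46), where 5.46 is the 10th percentile of all normalised values; differences of dim probe sets are understated on that scale. An additive limma model of agent and age was fitted to the 26999 probe sets whose mean level reached the 40th percentile (a signal of 41.2). Of the 15 member probe sets 14 passed this filter, at least 1 for each of the 10 genes, and the second Gsta3 probe set did not. A probe set was called at a Benjamini-Hochberg adjusted p under 0.05. Each gene is described by its brightest probe set unless another is named.

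The BPA P0 array stood apart and touches several values below. It had a mean deposited signal, after trimming 2% at each end, of 157 against 235 to 277 on the others. Keratinised epithelium markers, summed over 7 of 7 genes, gave 21270 there, 8290 on BPA E18 and 1253 to 2487 on the other arrays. Steroid cell markers of gonad and adrenal, 7 of 8 on the array, summed to 3508 there and 317 to 466 elsewhere. Hsd3b1, a steroid dehydrogenase gene, read 886 against 4.27 to 10.4, and Cyp17a1, Inha, Amh and Nr5a1 were also highest there. Cyp11a1 was little higher (38.8 against 20.2 to 33.9), and Star did not follow (101 against 37.6 to 121). Urothelium, the lining that the sinus tissue is expected to hold, was present on every array: its 7 markers summed to 5856 to 7898 on the BPA arrays, 5346 to 6949 on the DES arrays and 4625 to 5134 on the Control arrays. Of the 7 markers, Upk3a alone had all BPA and DES arrays above all Control arrays. Gata3 went the other way in BPA, at 457 to 482 against 499 to 674 in Control. Liver markers, 6 of 7 on the array, varied between arrays of each group (364 to 2516 in BPA, 277 to 1195 in DES, 170 to 2205 in Control). In tissue samples, fewer cells of a type and less RNA per cell cannot be told apart, and the part of these cell types in any value below was not tested unless a value says so.

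**Figure D1:**
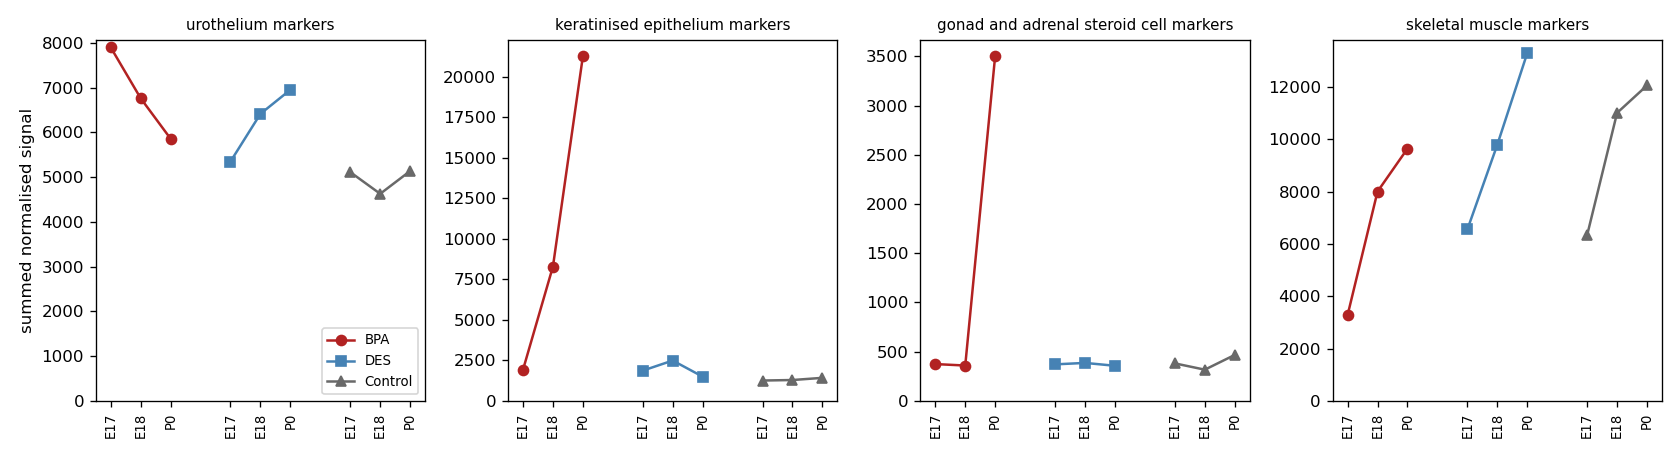
Summed normalised signal of 4 marker lists (y axis, linear) on the 9 arrays by agent and age (x axis). BPA P0 is the highest array for keratinised epithelium (21270) and steroid cells (3508). The urothelium sum, though not each of its markers, is higher on the 3 BPA and 3 DES arrays than on the 3 Control arrays. The skeletal muscle sum is lowest at E17 in each agent.

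The alpha-class gene Gsta2 had the widest spread of the 10 genes, 2.46 log2 units from the lowest array to the highest. Its signal was 129, 111 and 326 on the BPA arrays at E17, E18 and P0, 102, 109 and 85.0 on the DES arrays, and 62.9, 55.1 and 55.3 on the Control arrays. All 3 BPA and all 3 DES arrays therefore read above all 3 Control arrays, and BPA P0 was the highest array of all. The mean was 189 ± 120 in BPA, 98.5 ± 12.2 in DES and 57.7 ± 4.48 in Control (SD, n = 3 arrays each). The fitted difference between BPA and Control was 1.46 ± 0.32 log2 units (SE), with 0.97 at E17, 0.94 at E18 and 2.45 at P0. Without the BPA P0 array it was 0.93 ± 0.20, and with BPA E18 left out as well it was 1.01. Urothelium marker sums, given above, were likewise higher on all BPA and DES arrays than on all Control arrays, and their part in the Gsta2 values was not tested. Liver markers, of a tissue rich in alpha transferases, summed to 975, 2516 and 364 on the BPA arrays, 1195, 355 and 277 on the DES arrays and 2205, 170.5 and 1188 on the Control arrays. These sums overlapped between the agents, and their part in the Gsta2 values was not tested. The marker sums of keratinised epithelium (21270) and steroid cells (3508) were highest on BPA P0, as Gsta2 was, and the part of these cells was not tested either. Gsta2 had no constant course with age: P0 minus E17 was 1.30 in BPA, -0.24 in DES and -0.17 in Control, and the fitted P0 minus E17 difference was 0.30 ± 0.32 over all arrays and -0.24 ± 0.20 without BPA P0.

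Gsta3, an alpha transferase whose human counterpart isomerises steroid precursors, was the dimmest member, brighter than 53.1% of all probe sets. It read 74.9, 78.5 and 115 in BPA, 56.5, 119.8 and 57.2 in DES, and 70.7, 102 and 80.3 in Control. The agents overlapped fully, and E18 was the highest age in DES and Control but not in BPA. The BPA minus Control difference was 0.07 ± 0.26, and -0.21 ± 0.26 without BPA P0. Gsta4, the alpha transferase that clears alkenal products of lipid peroxidation, was bright and nearly even, with 1628, 1354 and 1447 in BPA, 1067, 1335 and 1498 in DES, and 1146, 1232 and 1355 in Control. Its highest array was BPA E17, whose difference from Control was 0.50, against 0.14 at E18 and 0.09 at P0. On the DES and Control arrays the signal was higher at each later age, whereas in BPA it was highest at E17.

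The mu-class genes Gstm1 and Gstm2, whose products conjugate aromatic electrophiles, came next in spread (1.61 and 1.72 log2 units). Gstm1 read 1906, 1322 and 2643 on the BPA arrays, 918, 1191 and 1494 on the DES arrays, and 901, 865 and 1295 on the Control arrays. Each BPA array lay above all 3 Control arrays, by a narrow margin at BPA E18 against Control P0, and in values as deposited that margin was lost (1277 against 1338). The fitted difference between BPA and Control was 0.90 ± 0.14, 0.83 ± 0.17 without BPA P0, and 1.17 without BPA E18 and BPA P0. By age, in the order E17, E18, P0, it was 1.08, 0.61 and 1.03. After scaling, though not on the deposited values of the BPA arrays, Gstm1 was also highest at P0 in each agent: P0 minus E17 was 0.47 in BPA, 0.70 in DES and 0.52 in Control.

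Gstm2 read 692, 662 and 1921 on the BPA arrays, 580, 642 and 703 on the DES arrays, and 633, 601 and 923 on the Control arrays. The P0 array was the highest of each agent and all 3 P0 arrays lay above all E17 and E18 arrays, narrowly so for DES P0 against BPA E17. The fitted P0 minus E17 difference was 0.76 ± 0.22, and 0.39 ± 0.13 without BPA P0. BPA arrays differed from Control by 0.13, 0.14 and 1.05 at the successive ages. The fitted value of 0.44 ± 0.22 was 0.07 ± 0.13 without BPA P0, and 0.12 without BPA E18 and BPA P0. The mean was 1092 ± 718 in BPA, 642 ± 61.8 in DES and 719 ± 178 in Control (SD, n = 3 arrays each), the large BPA spread coming from BPA P0. That array had the highest keratinised epithelium and steroid cell marker sums, whose part in the Gstm2 values was not tested.

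**Figure D2:**
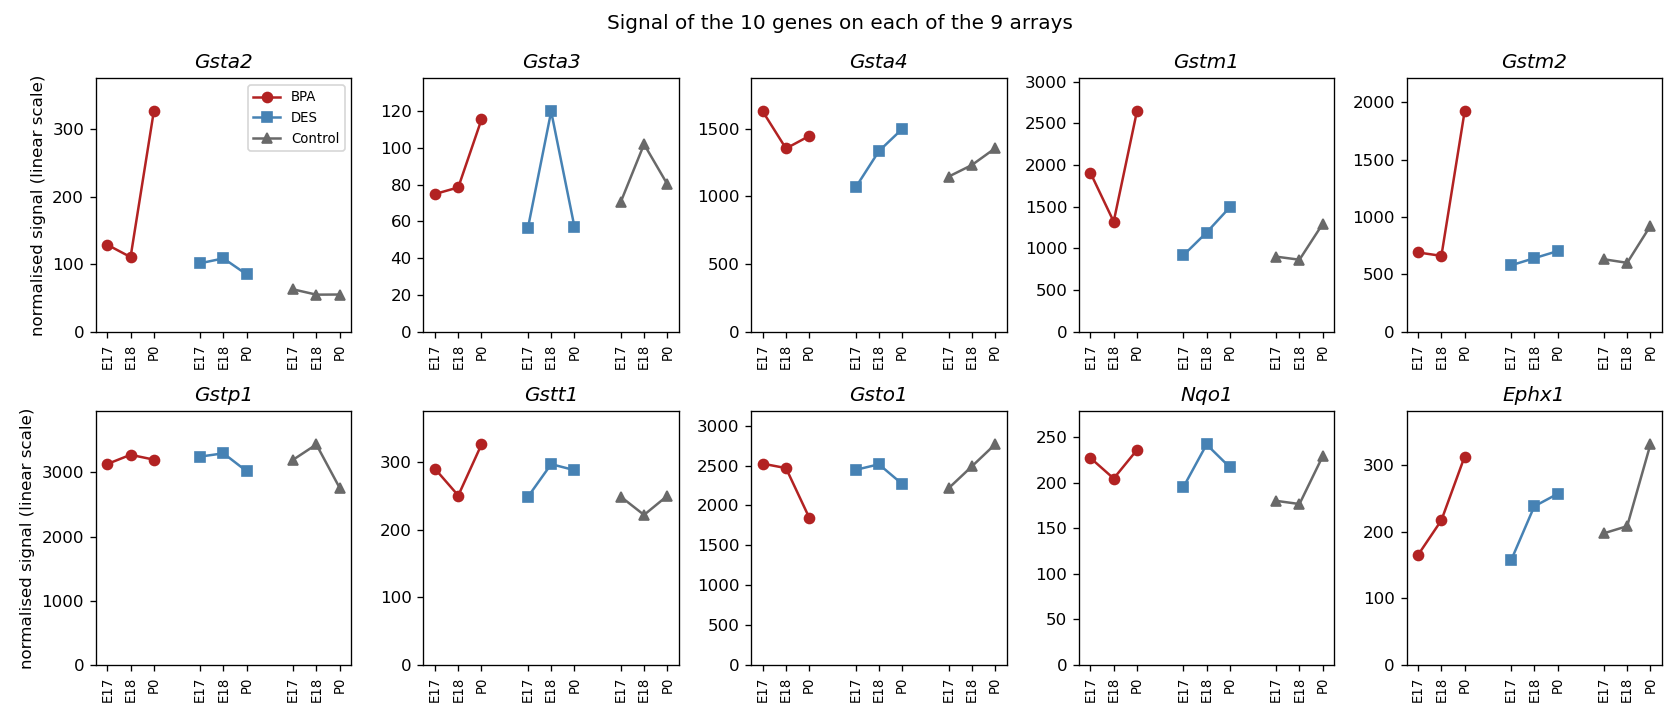
Normalised signal (y axis, linear, from 0, a scale of its own in each panel) of the brightest probe set of each of the 10 genes at E17, E18 and P0, for BPA, DES and Control (1 array per point). Gsta2 is higher on the BPA (111 to 326) and DES (85.0 to 109) arrays than on the Control arrays (55.1 to 62.9), Gstm2 is highest at BPA P0 (1921), and Ephx1 is highest at P0 in each agent.

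The remaining transferases were flatter. Gstp1, the pi-class enzyme and the brightest member by percentile (98.1), ranged by 0.31 log2 units in all. It read 3133, 3276 and 3201 in BPA, 3248, 3299 and 3020 in DES, and 3199, 3437 and 2763 in Control. Its E18 signal was the highest of each agent after scaling, and P0 was below E18 in each agent on the deposited scale as well. Gstt1, the theta-class enzyme that acts on small halogenated compounds, read 290.5, 251 and 327 in BPA, 249, 298 and 289 in DES, and 249, 222 and 250.5 in Control. All BPA arrays lay above all Control arrays by a narrow margin, a separation that values as deposited do not have (206 to 301 in BPA, 223 to 278 in Control). Gsto1, an omega-class thiol transferase that reduces dehydroascorbate, read 2525, 2469 and 1848 in BPA, 2447, 2517 and 2271 in DES, and 2216, 2489.5 and 2766 in Control. Its lowest array was BPA P0, where 4 of the other members (Gsta2, Gstm1, Gstm2 and Gstt1) had their highest signal. The BPA minus Control difference was -0.13 ± 0.12, and 0.03 ± 0.10 without BPA P0.

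Nqo1 read 227, 205 and 236 on the BPA arrays, 195, 242 and 217 on the DES arrays, and 180, 177 and 229 on the Control arrays. BPA was above Control at each age, by 0.33, 0.21 and 0.04 log2 units, but the groups overlapped. Ephx1 read 165, 217 and 313 in BPA, 157, 238 and 257 in DES, and 198, 208 and 331 in Control at E17, E18 and P0. After scaling all P0 arrays lay above all E18 arrays and all E18 arrays above all E17 arrays, whereas on the deposited scale BPA P0 (198) lay within the range of the other ages. The means were 173 ± 21.5 at E17, 221 ± 15.3 at E18 and 300.2 ± 38.7 at P0 (SD, n = 3 arrays each). The fitted P0 minus E17 difference was 0.77 ± 0.14, with 0.90 in BPA, 0.69 in DES and 0.73 in Control, and 0.72 ± 0.17 without BPA P0. The skeletal muscle marker sum was also lowest at E17 in each agent, at 3280 in BPA, 6557 in DES and 6340 in Control. At P0 it was 9651, 13306 and 12069. Of these markers Ckm was instead highest at E17 in BPA (1040, against 640 at P0) and in Control (817, against 467). The part of skeletal muscle in the Ephx1 values was not tested.

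The members as a list differed between BPA and Control by a median of 0.22 log2 units, against -0.00431 over all 26999 probe sets. Of the 10 genes 8 had a value above 0, 6 were higher at all 3 ages (Gsta2, Gsta4, Gstm1, Gstm2, Gstt1 and Nqo1) and 3 had all BPA arrays above all Control arrays. Of all tested probe sets 49.0% lay above 0, 14.5% were higher at all 3 ages and 5.05% were separated in that way. In the other direction, 0 members and 5.26% of all probe sets had all BPA arrays below all Control arrays. Since the genes were picked with this comparison in view, nothing is read from these counts. On the deposited scale the BPA minus Control median over all probe sets was -0.24, and relative to it Gsta2 stood at 1.47, Gstm1 at 0.89, Gstm2 at 0.42, Gsta4 and Gstt1 at 0.24 each and Nqo1 at 0.18. Before that shift is taken off, Gsta4 (-0.0066), Gstt1 (-0.0018) and Nqo1 (-0.06) were at or just below 0. Over all probe sets limma called 0%, the 14 of the members included, and 7.84% of all probe sets had an unadjusted p under 0.05.

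**Figure D3:**
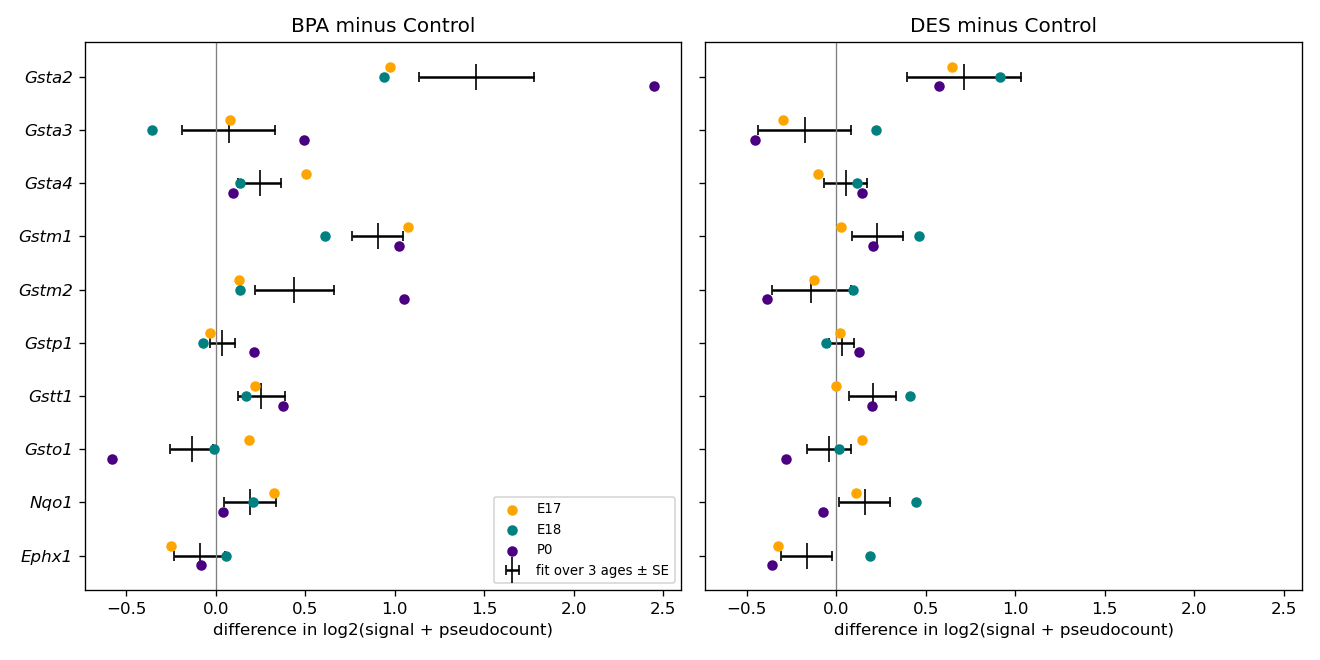
Difference of BPA (left) and DES (right) from Control in log2(signal + pseudocount) (x axis) for the 10 genes (y axis). Coloured points are the single pairs of arrays at E17, E18 and P0, and black bars are the limma estimate over the 3 ages ± SE. In BPA Gsta2 (1.46) and Gstm1 (0.90) lie furthest right, with the P0 points of Gsta2 and Gstm2 far from their other ages, and in DES Gsta2 (0.71) does.

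The comparison of DES with Control sets a potent estrogen beside BPA on the same genes, and it shares the Control arrays with the BPA comparison. None of the 14 member probe sets was called (0 of 14, with 0% of all probe sets called; smallest limma adjusted p = 0.843), and 0 of the 10 genes had an unadjusted p under 0.05, against 5.63% of all probe sets. Gsta2 had a log2 difference of 0.71 ± 0.32, with a 95% interval of -0.00327 to 1.43 and values of 0.65, 0.92 and 0.58 at E17, E18 and P0 (limma adjusted p = 0.843). It was higher in 3 of 3 pairs and was the only member whose DES arrays all lay above the Control arrays, as 5.87% of all probe sets did; 0 members and 5.04% of all probe sets lay below in that way. Gstm1, at 0.23 ± 0.14 with an interval of -0.09 to 0.55, was the other of the 2 genes that were higher at all 3 ages, as 14.7% of all probe sets were. Its E17 difference was 0.03, leaving out single arrays moved the fitted value to between 0.04 and 0.38, and its second-brightest probe set was below Control at E17 (-0.05). The intervals of the other members lay within -0.76 to 0.50: Gstm2 ran from -0.63 to 0.35, Nqo1 from -0.16 to 0.48 and Ephx1 from -0.49 to 0.16. The narrowest was that of Gstp1, from -0.13 to 0.19. The median over the 10 genes was 0.04, against 0.00347 over all probe sets.

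Side by side, Gsta2 differed from Control by 1.46 ± 0.32 in BPA and 0.71 ± 0.32 in DES, and at E18 the BPA and DES values were nearly equal (0.94 and 0.92). Gstm1 differed by 0.90 ± 0.14 in BPA and 0.23 ± 0.14 in DES. Ephx1 lay below 0 in both, at -0.09 ± 0.14 in BPA and -0.16 ± 0.14 in DES. The doses of the agents differed and their difference from each other was not tested.

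Between E17 and E18, 0 of the 14 member probe sets were called by limma (0% of all probe sets; smallest adjusted p = 1 among the members), and Ephx1 alone of the 10 genes had an unadjusted p under 0.05, as 2.75% of all probe sets did. Ephx1 was among the genes picked for a higher signal at birth than at E17 or E18, and those comparisons use the same E17 and E18 arrays. Ephx1 differed by 0.35 ± 0.14, with a 95% interval of 0.03 to 0.67, and was higher at E18 in BPA (0.38), DES (0.59) and Control (0.07). Gsta3 differed by 0.53 ± 0.26, higher in 3 of 3 pairs, with 1.02 in DES, 0.50 in Control and 0.06 in BPA. Gstp1 was the third gene with all E18 arrays above all E17 arrays, at 0.06 ± 0.07, a separation that 5.17% of all probe sets showed; 0 members and 4.26% of all probe sets were separated downwards. On the deposited scale none of these 3 genes was separated. The fitted values of the mu-class genes stayed within 0.10 of 0 (Gstm1 -0.07 ± 0.14, Gstm2 0.0037 ± 0.22). For Gstm1 this joined values of opposite sign, at -0.53 in BPA, 0.37 in DES and -0.06 in Control. The third-brightest Gstm1 probe set had -0.30 ± 0.15 and was higher at E18 in 0 of 3 pairs. The median over the 10 genes was 0.05 and that of all probe sets 0.000964.

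Between E17 and P0 the members had a median of 0.22, against -0.00629 over all probe sets. Of the 10 genes 8 lay above 0, as 48.9% of all probe sets did. Those higher at P0 in all 3 agents were Gsta3, Gstm1, Gstm2, Gstt1, Nqo1 and Ephx1, 6 of 10, where 18.3% of all probe sets were. The margin was narrow for Gsta3 in DES (0.02) and Gstt1 in Control (0.007). Gstm2 and Ephx1 had all P0 arrays above all E17 arrays, as 9.94% of all probe sets did, and 0 members lay wholly below, as 9.92% did; of these Gstm2 alone was separated on the deposited scale. Of the 14 member probe sets 0 were called, where 0.0926% of all probe sets were (25, of which 24, or 0.0889% of all, were higher at P0), while 17.3% of all probe sets had an unadjusted p under 0.05. The genes were picked with this comparison in view, and nothing is read from the members' counts. On the deposited scale 392 probe sets were called, 32 of them higher, with a median of -0.29 over all probe sets. Relative to that median Gstm2 stood at 0.78, Ephx1 at 0.77 and Gstm1 at 0.58. Before that shift is taken off, Gsta2 (-0.03), Gsta3 (-0.05), Gsta4 (-0.09), Gstt1 (-0.18) and Nqo1 (-0.12) were below 0. Relative to the median these genes lay at 0.11 to 0.26.

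Between E18 and P0 the largest differences were again those of Gstm2 (0.76 ± 0.22), Gstm1 (0.63 ± 0.14) and Ephx1 (0.43 ± 0.14). Without BPA P0 that order did not hold: Gstm1 was at 0.56 ± 0.17, Gsta3 at -0.55 ± 0.26, Gstm2 at 0.39 ± 0.13 and Ephx1 at 0.37 ± 0.17. Gstp1, at -0.16 ± 0.07, was the gene with all P0 arrays below all E18 arrays, as 7.34% of all probe sets were. Gsta4, Gstm2 and Ephx1 had all P0 arrays above all E18 arrays, as 6.99% were, and of these Gstm2 alone was separated on the deposited scale. For Gsta4 the arrays nearly tied (1355.09 on Control P0 against 1354.49 on BPA E18), and its fitted difference was 0.13 ± 0.12. The median of the 10 genes was 0.15 and that of all probe sets -0.00644. Limma called 0 of the 14 and 0% of all probe sets, of which 13.5% had an unadjusted p under 0.05, and nothing is read from the members' counts here either.

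**Figure D4:**
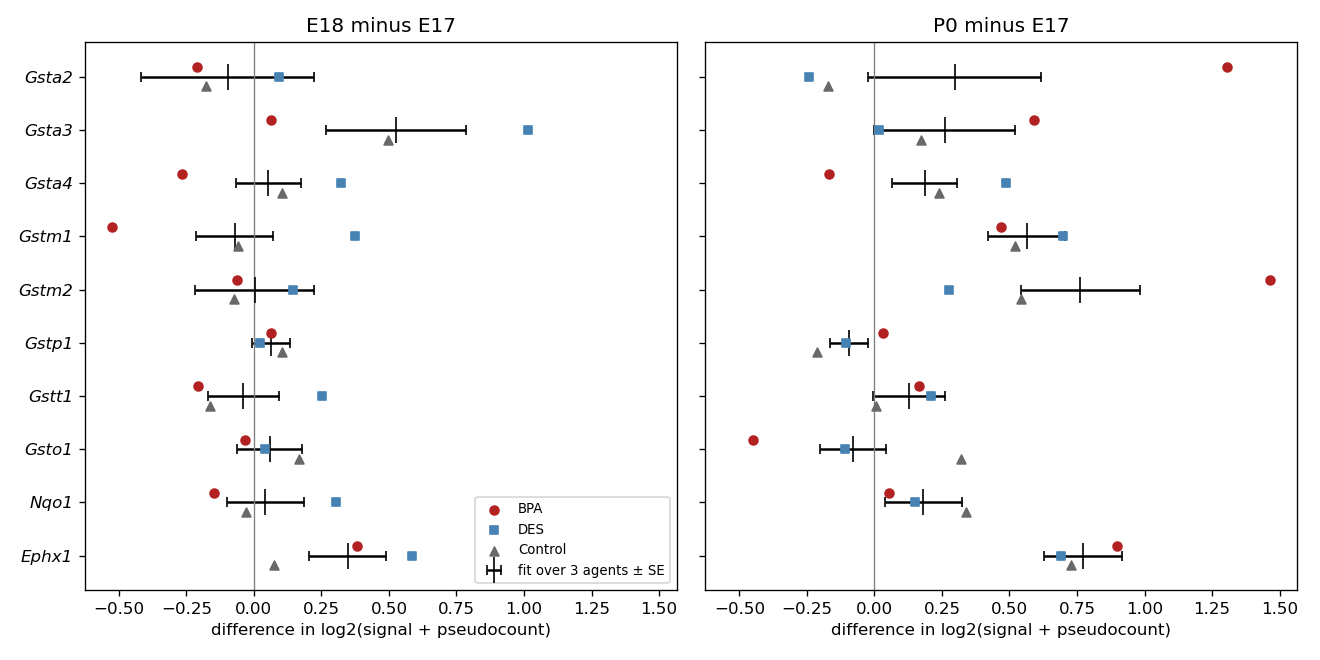
Difference of E18 (left) and P0 (right) from E17 in log2(signal + pseudocount) (x axis) for the 10 genes (y axis). Points are the pairs of arrays within BPA, DES and Control, and black bars are the limma estimate over the 3 agents ± SE. At P0 the 3 Ephx1 points lie together (0.69 to 0.90), whereas the BPA points of Gsta2 (1.30) and Gstm2 (1.47) lie apart from those of the other agents.

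Whether the difference from Control altered with age was fitted as a linear term per age step. For DES, 0 of the 14 member probe sets and 0% of all probe sets passed in limma, and 1 of the 10 genes had an unadjusted p under 0.05, against 7.22% of all probe sets. That gene was Gsto1, with a term of -0.21 ± 0.09 log2 units per step (limma adjusted p = 0.677). For BPA the term rests on the same arrays as the choice of the genes, so it is given as a description with no p-value for a member. It was 0.74 ± 0.30 for Gsta2, 0.46 ± 0.19 for Gstm2 and -0.38 ± 0.09 for Gsto1, each with its most distant value on BPA P0. The second Gsto1 probe set did not share this term, at -0.0086 ± 0.10. The dimmest Gstm1 probe set had -0.64 ± 0.21, where the brightest had -0.02 ± 0.18. Over all probe sets 2 passed (0.00741%), 0 of them members, and 8.56% had an unadjusted p under 0.05.

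Probe sets of the same gene did not always run together. The second-brightest Gstm1 probe set followed the brightest (Pearson r = 0.99 over the 9 arrays, a description), with 0.73 ± 0.17 for BPA minus Control. The other Gstm1 probe sets followed the brightest less (r = 0.60 and 0.20). The third-brightest had 0.21 ± 0.15 for BPA minus Control, with overlapping groups, and -0.07 with values as deposited. The dimmest read 376, 316 and 190 in BPA, 243, 204 and 342 in DES, and 214, 218 and 266 in Control, so that BPA P0 was its lowest array and the highest of the brightest probe set. Its P0 minus E17 difference was -0.06 ± 0.26, and 0.37 ± 0.15 without BPA P0, and its BPA minus Control difference was 0.28 ± 0.26, and 0.71 ± 0.15 without BPA P0. For Gsto1 the probe sets had r = -0.27: the second read 1501, 1532 and 1786 in BPA, 1249, 1346 and 1243 in DES, and 1273.5, 1499 and 1534 in Control, with its highest signal on BPA P0, where the brightest had its lowest. Some probe sets of this array type (suffix x) hold probes that can match other transcripts, among them the brightest ones of Gstm1 and Gsto1.

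**Figure D5:**
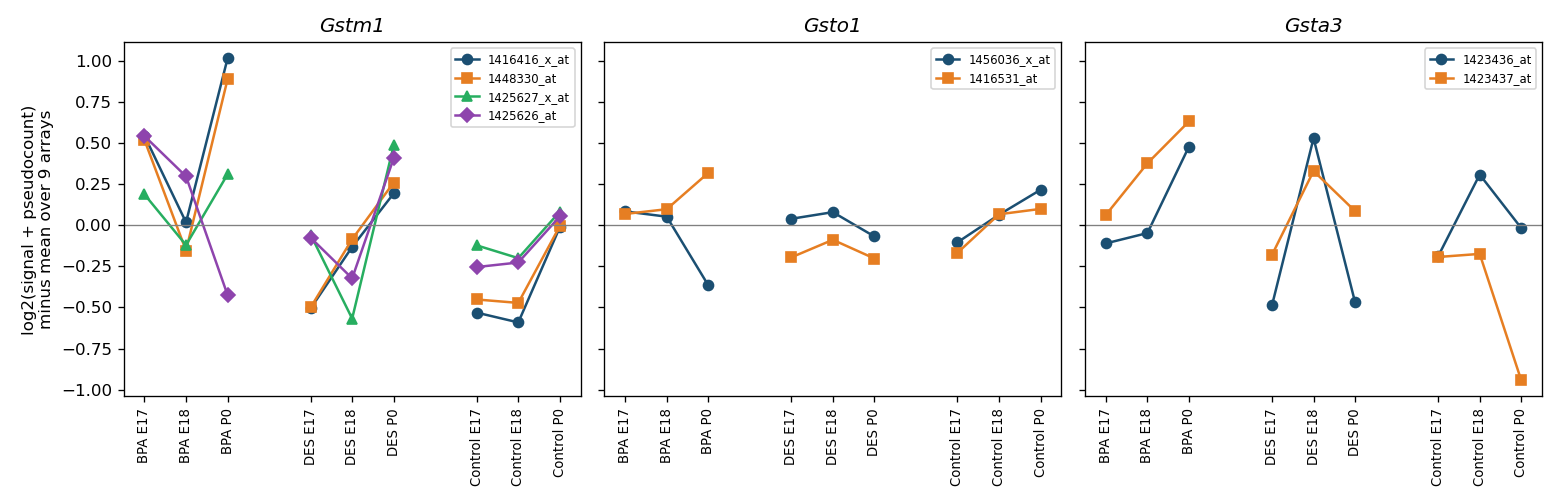
Log2(signal + pseudocount) minus its mean over the 9 arrays (y axis) for each probe set of Gstm1, Gsto1 and Gsta3, by agent and age (x axis, 1 array per point). On BPA P0 the brightest and the dimmest Gstm1 probe set lie on opposite sides of their means, as do both Gsto1 probe sets, and the dimmer Gsta3 probe set is lowest on Control P0 (15.7).

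The genes most like the members in pattern were found by Pearson correlation over the 9 arrays among 13399 genes, for the 4 members with the widest spread; with so few arrays and so many genes these values are descriptions. Nearest to Gsta2 were Lama3, a laminin chain of epithelial basement membranes (r = 0.97), Aard (0.95) and Chchd10 (0.94). Lama3 read 212, 201 and 256 on the BPA arrays, 199, 193 and 191 on the DES arrays and 179, 183 and 185 on the Control arrays. Aard read 1095 on BPA P0 and 217 to 368 on the other arrays. Nearest to Gstm2 were Chmp4b (0.98), Nuak2 (0.98) and Gm2a (0.97), and nearest to Gstm1 were Muc2, Atp1b2 and Wbp1l (0.94 each). Nearest to Ephx1 were Coq8a (0.97), the innate immune receptor gene Tlr4 (0.96) and Zc3hc1 (0.96). Coq8a, a gene of coenzyme Q synthesis, had 48.7, 87.3 and 137 in BPA, 48.8, 79.5 and 89.0 in DES, and 63.9, 72.3 and 174 in Control. Among the members themselves the highest correlations were those of Gstm1 with Gstt1 (0.84) and of Gstt1 with Nqo1 (0.81), and the lowest that of Gsta2 with Gsto1 (-0.70).

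The wider pathway was described with 7 further lists, none of whose tested genes was called in any of the 5 comparisons. Of all tested probe sets 49.0% were above 0 in BPA minus Control, 50.8% in DES minus Control and 48.9% in P0 minus E17. The lists were not tested as sets, and nothing is read from their counts here or in the next paragraph. Of the 17 other glutathione transferase and related genes 13 were tested, 9 of them above 0 in BPA minus Control (median 0.06) and 7 in P0 minus E17 (median 0.03). Gstm6, another gene of the mu cluster, read 442 on BPA P0, where Gstm2 was also highest, and 8.46 to 101 on the other arrays, with a P0 minus E17 difference of 1.78 ± 0.49. Genes of glutathione synthesis and recycling were above 0 in 10 of 12 in BPA minus Control (median 0.14) and in 5 of 12 in DES minus Control (median -0.03). Of the other NRF2 targets 10 of 16 were above 0 in BPA minus Control (median 0.04) and 8 of 16 in P0 minus E17 (median 0.01). Hmox1, the heme oxygenase gene, read 182, 138 and 485 in BPA, 107, 107 and 128 in DES, and 150.5, 139.6 and 273 in Control, with its highest values at P0 in each agent and a P0 minus E17 difference of 0.82 ± 0.24.

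Among NRF2 regulators 7 of 9 were above 0 in BPA minus Control (median 0.06) and 3 of 9 in DES minus Control (median -0.07). Nfe2l2 itself read 1040, 946 and 752 in BPA, 788, 791 and 972 in DES, and 849, 776 and 336 in Control, so that Control P0 was its lowest array, and P0 minus E17 was -0.50 ± 0.25. Mafg, a small Maf partner of NRF2, was the other low value there (-0.25 ± 0.13), and Bach1, a repressor that competes for the same elements, was among the lowest in BPA minus Control (-0.28 ± 0.15). The aryl hydrocarbon receptor list had 4 of 9 genes tested, of which 1 was above 0 in BPA minus Control, and the list of pregnane and constitutive androstane receptor genes 3 of 8, of which 2 were. Of the other metabolic enzymes 10 of 12 were above 0 in BPA minus Control (median 0.22) and 10 of 12 in P0 minus E17 (median 0.12). Fmo5, a flavin monooxygenase gene, read 466, 352 and 427 in BPA, 262, 310 and 409 in DES, and 215, 271 and 187 in Control, a BPA minus Control difference of 0.88 ± 0.20. Cyp2e1, a cytochrome P450 gene, had the lowest value of the lists in that comparison, at -0.36 ± 0.29.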

How the data were processed

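Per the labels' protocols, total RNA (RNeasy kit) was made into biotinylated cRNA. The deposited table holds probe set intensity values on a linear scale for 45101 probe sets. The submitters' processing notes name MAS5; its version and scaling target are not given in the sources used here. The arrays had no common level, so quantile normalization was applied, and log2(intensity + 5.46) was fitted in limma 3.58.1 (R 4.3.3) with agent and age as additive factors and moderated with eBayes, trend included (4 residual and 5.77 prior degrees of freedom; Benjamini-Hochberg adjustment over 26999 probe sets). The agent-by-age model kept 2 residual degrees of freedom. The 64 control probe sets were left out. Names came from the platform annotation: 34945 probe sets had 1 symbol, 932 several and 9224 none listed. No arrays were duplicates of each other (0 identical pairs). Precision is limited by how many arrays there are.

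Members, lists and tests were chosen with earlier results of these data known. Text names the brightest probe set of each member; another in full where it opposes the brightest by over 0.3 log2 units (the second Gsto1 probe set, just short of this, was added after its values were seen); from the other lists the 2 highest and 2 lowest genes in BPA minus Control and P0 minus E17; and the 3 genes most correlated with each of the 4 widest-ranging members. Alternatives covered scaling, pseudocount, filter, probe sets per gene, variance trend and arrays left out. The sequence tables and gene coordinates are RefSeq's (GRCm38.p6).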

Additional observations from a re-analysis of the deposited data

Results flagged for a closer look

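Signals outside the member probe sets tested were seen in 2 places. A probe set annotated jointly to Gm3776, Gsta1 and Gsta2, which the choice of single-symbol probe sets left out, read, in order of age, 73.9, 49.0 and 165 on the BPA arrays, 42.1, 43.6 and 50.1 on the DES arrays and 20.5, 46.5 and 33.4 on the Control arrays. The fitted difference was 1.27 ± 0.36 log2 units, and at E18 the BPA value was close to that of Control. The second Gsta3 probe set, too dim to be tested, read 37.1, 47.4 and 57.6 in BPA, 30.5, 45.7 and 37.7 in DES, and 30.1, 30.6 and 15.7 in Control, a mean difference of 0.79 log2 units with no test. Its brighter probe set differed by 0.07 ± 0.26.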

How the results depend on the processing

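No member was called in the main setting in any comparison, so no call could be lost. Under the alternatives, of 1160 member values 4 gained a call, 128 moved by over 1 SE and 83 changed sign. Without the DES P0 array, Ephx1 gained a call as P0 minus E17 and Gstm2 as P0 minus E17 and P0 minus E18. Ephx1 gained one also with 1 probe set per gene, as P0 minus E17. The choice of the genes used these comparisons, so these calls support nothing. None of the values that changed sign was called, and each belonged to a main value of 0.39 or less in size. Over all probe sets, BPA minus Control gave 0 calls, 34 with values as deposited (12 higher), 2 with the 60th percentile filter, 2 with 1 probe set per gene, 4 with BPA E18 and BPA P0 both left out (an alternative chosen after seeing the data), and 0 to 8 without single arrays (7 without Control E17, 8 without BPA E17, 1 without BPA E18). P0 minus E17 gave 25, 392 as deposited, 7 without a filter, 56 with the 60th percentile filter, 83 with 1 probe set per gene (62 higher), 0 without the variance trend, 0 with BPA E18 and BPA P0 both left out, and 0 (without Control E17 or DES E17) to 1601 (without DES P0, 704 higher) without single arrays (12 without Control E18, 4 without Control P0, 13 without DES E18, 9 without BPA E17, 3 without BPA P0). E18 minus E17 gave 3 as deposited and 0 to 1 without single arrays (1 without BPA P0), and P0 minus E18 gave 7 and 0 to 657 (without DES P0). DES minus Control gave 0 under each alternative. The causes were not tested. Arrays were matched by age, which is a factor of the model throughout. No paired analysis was possible beyond this because the labels give no replicate numbers. Dim probe sets, such as the second of Gsta3, below the filter signal of 41.2, are limited by background.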
